A study of Mus musculus with 6 samples.

Results

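Resident and perivascular macrophages of mouse tissues share a set of endocytic and scavenger genes, and 8 of them are described here in bulk RNA-seq of subcutaneous tumours: Folr2, Mrc1, Lyve1, Cd163, Stab1, Timd4, Cbr2 and F13a1. The genes were chosen by symbol as markers of these macrophages, and all 8 of 8 were found among the 55291 gene symbols of the deposited count table. The samples are titled as subcutaneous tumours of CT2A, a mouse glioblastoma line, while their source label reads brain. The site is given here as in the titles and the tissue label, and which label holds was not tested. The tested tumours came from Siglece knockout (KO) mice, 3 libraries, and were set against tumours from wild-type (WT) mice, 3 libraries. Siglece encodes Siglec-E, an inhibitory receptor of mouse myeloid cells that binds sialic acid. The labels give no strain, sex or age for the mice and do not name the knockout allele. Every tumour came from the same line, so the comparison covers 1 tumour model. Libraries were made with Smart-seq2 from sampled CT2A cells, and the labels name no sort or gate.

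Tissue macrophages come from embryonic precursors and from blood monocytes, depend on signalling through the growth factor receptor Csf1r, and take up dying cells, proteins and lipids. Those that lie along vessels and in connective tissue are known for the folate receptor Folr2, the mannose receptor Mrc1, the hyaluronan receptor Lyve1 and the haemoglobin-haptoglobin receptor Cd163. Several of the 8 genes are not restricted to macrophages: lymphatic endothelium also makes Lyve1 and Mrc1, sinusoidal endothelium makes Stab1, and platelets carry the product of F13a1.

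The proximal promoters of 4 members are shown because 3 of them (Mrc1, Stab1 and F13a1) hold the core letters of the binding motif of PU.1, the transcription factor of the myeloid lineage, and because the fourth, Cd163, differed most between KO libraries. Each line gives the 150 bases before the RefSeq start (GRCm38.p6), in the direction of transcription, with GAGGAA or its reverse complement TTCCTC in capitals.
Mrc1, chr2:14229264-14229413, plus strand: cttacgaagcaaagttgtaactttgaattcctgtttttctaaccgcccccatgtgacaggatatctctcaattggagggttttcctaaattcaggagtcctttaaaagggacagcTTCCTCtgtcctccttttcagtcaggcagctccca
Stab1, chr14:31168642-31168791, minus strand: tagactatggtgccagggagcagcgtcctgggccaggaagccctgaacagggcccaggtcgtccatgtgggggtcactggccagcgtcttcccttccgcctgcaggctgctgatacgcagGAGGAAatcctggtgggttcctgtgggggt
F13a1, chr13:37050245-37050394, minus strand: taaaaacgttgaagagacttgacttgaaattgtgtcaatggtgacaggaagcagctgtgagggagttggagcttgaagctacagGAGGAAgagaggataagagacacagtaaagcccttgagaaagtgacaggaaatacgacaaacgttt
Cd163, chr6:124304501-124304650, plus strand: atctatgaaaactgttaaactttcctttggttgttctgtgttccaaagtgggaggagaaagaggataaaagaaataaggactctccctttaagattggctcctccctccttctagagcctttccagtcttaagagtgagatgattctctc
Over the 250 bases before the start nearest to the annotated one, 4 of the 7 members with a RefSeq promoter entry held GAGGAA on either strand, the fourth being Cbr2. Of all 32851 mouse windows of that length 23.3% held it. Mrc1 had 3 copies and Stab1, Cbr2 and F13a1 had 1 each. The letters TGCTGA on either strand, a half-site of the MAF factors, were found in Folr2, Stab1 and Timd4, and in 16.1% of all windows. TATAAA read in the direction of transcription was found in 0 of the 7 members and in 7.59% of all windows. These are letter matches in 1 window per gene, and binding was not measured.

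Library totals ran from 24369359 to 40574093 counts. Siglece had 0, 8 and 0 counts in KO replicates 1, 2 and 3, against 74, 99 and 64 counts in WT replicates 1, 2 and 3. The KO libraries were unlike each other: summed over 12 glial and neural progenitor genes of the tumour line (Sox2, Olig2, Nes and others), KO replicates 1 and 3 held 1781 and 2036 CPM (counts scaled by TMM library size) and KO replicate 2 held 3992 CPM, against 4829 to 6462 CPM in WT. The part of this difference in makeup in the levels below was not tested. In bulk tumour RNA, more cells of a type and more RNA per cell cannot be told apart. Whether each library stands for its own mouse is not in the labels, so p-values measure only the spread between these libraries, which may be technical.

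Csf1r was at 801, 242 and 562 CPM in KO replicates 1, 2 and 3, against 110, 102 and 95.1 CPM in WT replicates 1, 2 and 3. The edgeR quasi-likelihood test put its log2 fold change at 2.39 (SE 0.46, adjusted p = 0.0250, by Benjamini-Hochberg over the 18621 genes tested). Csf1r was higher in each KO library, least in KO replicate 2, and the members are given below first on the scale of the whole library and then relative to Csf1r.

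Of the 8 members 7 passed the filter on low counts, and all 7 were higher in every KO library than in every WT library, against 24.6% of all tested genes. Timd4 was filtered out, and its order rests on a few counts. Of the 7, 5 rose in KO tumours (Folr2, Mrc1, Lyve1, Stab1 and Cbr2) and 0 fell (edgeR, adjusted p under 0.05; 7 at an unadjusted p under 0.05). Among all tested genes 11.2% were called higher and 0.226% lower. The median log2 fold change over the 7 was 3.51, beside -0.045 over all tested genes.

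**Figure D1:**
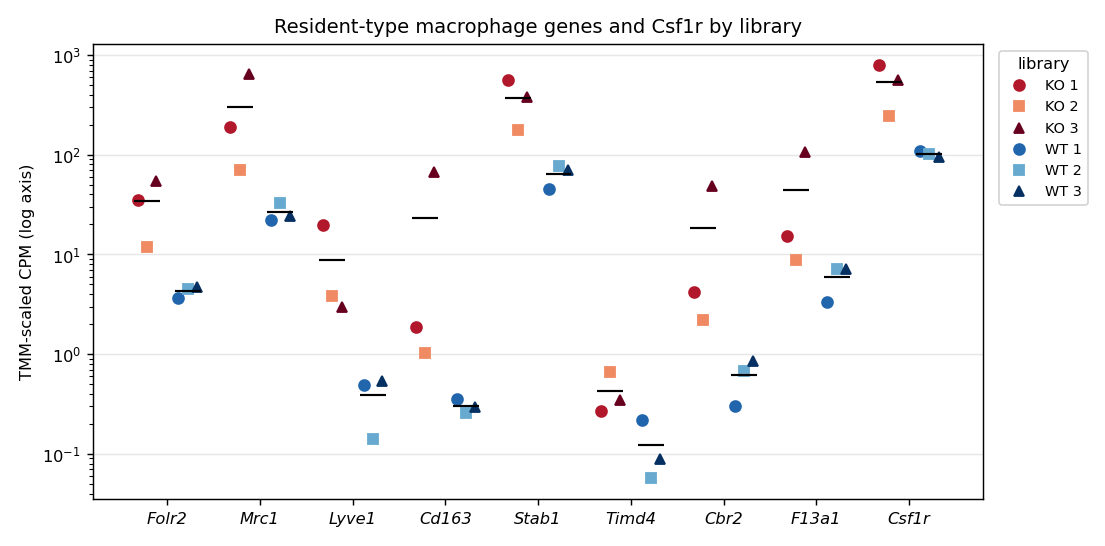
TMM-scaled CPM (log axis) of the 8 members and Csf1r in each library, KO left of WT, with black lines at group means. In each gene the KO libraries lie above the WT libraries, KO replicate 3 is far above the other KO libraries for Cd163, Cbr2 and F13a1, and KO replicate 1 is highest for Lyve1 and Stab1.

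Stab1 and Mrc1 were the most abundant members. Stab1, a scavenger receptor that clears modified lipoproteins and matrix fragments (minus strand, chr14:31139013-31168641, mm10, 69 exons in its longest transcript), was at 564, 177 and 380 CPM in KO replicates 1, 2 and 3, against 45.5, 77.1 and 70.0 CPM in WT replicates 1, 2 and 3. It averaged 374 ± 194 CPM over the KO libraries and 64.2 ± 16.5 CPM over the WT libraries (SD, n = 3 each). Stab1 rose by a log2 fold change of 2.54 in KO (SE 0.48, adjusted p = 0.0246, edgeR). All KO libraries were above all WT libraries, with KO replicate 1 highest.

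Mrc1, which takes up glycoproteins with exposed mannose (plus strand, chr2:14229392-14332057, 30 exons), was at 191, 70.3 and 644 CPM in KO replicates 1, 2 and 3, against 22.2, 32.5 and 24.5 CPM in WT replicates 1, 2 and 3. Mrc1 averaged 302 ± 303 CPM over the KO libraries and 26.4 ± 5.44 CPM over the WT libraries (SD, n = 3 each). It rose by a log2 fold change of 3.51 in KO (SE 0.77, adjusted p = 0.0302, edgeR). The KO libraries spanned 9.16-fold and the WT libraries 1.47-fold, so the size of the rise depended on the KO library, and KO replicate 3 was the highest. Without that library the log2 fold change was 2.28 (adjusted p = 0.0454, edgeR).

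Folr2, a folate-binding surface protein of resident macrophages (minus strand, chr7:101839988-101857194, 6 exons), was at 35.4, 12.02 and 54.9 CPM in KO replicates 1, 2 and 3. In WT replicates 1, 2 and 3 it was at 3.63, 4.47 and 4.73 CPM. The groups did not overlap, and Folr2 rose by a log2 fold change of 2.99 (SE 0.55, adjusted p = 0.0246, edgeR). The antisense gene Gm10602 lies across Folr2 on the other strand and had 928, 488 and 976 counts in KO replicates 1, 2 and 3, against 147, 311 and 338 counts in WT replicates 1, 2 and 3. Folr2 itself had 1042, 422 and 1102 counts in the KO libraries and 133, 157 and 159 in the WT libraries in the same order. The libraries do not mark strand, so reads of this pair cannot be told apart where they overlap. The same limit holds for Stab1, overlapped by Nt5dc2, and for Csf1r, overlapped by Hmgxb3, each protein-coding and on the other strand. Nt5dc2 had 1278, 1723 and 1401 counts in KO replicates 1, 2 and 3, against 3060, 2338 and 2429 in WT replicates 1, 2 and 3. Hmgxb3 had 918, 1552 and 368 counts in the KO libraries, against 1320, 1743 and 1825 in the WT libraries.

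Lyve1, a hyaluronan receptor of perivascular macrophages and lymphatic endothelium (minus strand, chr7:110850607-110863239, 6 exons), was at 19.7, 3.79 and 2.99 CPM in KO replicates 1, 2 and 3, against 0.492, 0.142 and 0.536 CPM in WT replicates 1, 2 and 3. Lyve1 rose by a log2 fold change of 4.49 (SE 0.94, adjusted p = 0.0281, edgeR), and the groups did not overlap. KO replicate 1 held most of the Lyve1 signal, 579 counts beside 133 and 60 in KO replicates 2 and 3, and the WT libraries held 18, 5 and 18. Markers of lymphatic endothelium moved in part with it: of 8 genes on that list 7 were tested, 3 rose (Flt4, Pdpn and Thy1) and 0 fell (edgeR). Among all tested genes 11.2% were called higher and 0.226% lower. At an unadjusted p under 0.05, 4 were higher and 1 lower, and 5919 of all 18621 tested genes passed in either direction (edgeR). DESeq2 called 4 higher and 1 lower, beside 3266 higher and 1244 lower among all 18621. Per Csf1r read 0 of the 7 were called higher and 2 lower (edgeR). On that scale 0.644% of all tested genes were called higher and 60.5% lower. The summed level of the list was 414 to 559 CPM in KO and 319 to 361 CPM in WT. Flt4, the VEGF-C receptor, was at 28.1, 19.2 and 11.5 CPM in KO replicates 1, 2 and 3, against 1.86, 3.62 and 3.78 CPM in WT replicates 1, 2 and 3. Mmrn1, a secreted glycoprotein of lymphatic endothelium and platelets, was at 10.8, 5.10 and 0.947 CPM in KO replicates 1, 2 and 3, against 0.710, 0.0855 and 0 CPM in WT replicates 1, 2 and 3 (adjusted p = 0.0810, edgeR). Prox1, the defining factor of lymphatic endothelium, was at 5.10, 4.47 and 0.598 CPM in KO replicates 1, 2 and 3, against 1.91, 4.73 and 4.37 CPM in WT replicates 1, 2 and 3, and Ccl21a had 0 counts in every KO library, against 41, 0 and 0 in WT. Lyve1, Flt4 and Mmrn1 were each highest in KO replicate 1. The part of lymphatic RNA in the Lyve1 level was not tested.

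Cd163, the receptor for haemoglobin bound to haptoglobin (plus strand, chr6:124304656-124330527, 17 exons), was at 1.87, 1.03 and 67.1 CPM in KO replicates 1, 2 and 3, against 0.355, 0.256 and 0.298 CPM in WT replicates 1, 2 and 3. The KO libraries thus differed among themselves by 65.4-fold, through KO replicate 3 with 1345 counts beside 55 and 36. Its log2 fold change of 6.24 (SE 1.67) did not pass (adjusted p = 0.0513, edgeR). KO replicates 1 and 2 were also above every WT library, which held 13, 9 and 10 counts.

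Cbr2, a carbonyl reductase used as a marker of resident macrophages in mouse tissues (minus strand, chr11:120729489-120732114, 8 exons), was at 4.25, 2.22 and 48.7 CPM in KO replicates 1, 2 and 3, against 0.301, 0.684 and 0.863 CPM in WT replicates 1, 2 and 3. It rose by a log2 fold change of 4.89 (SE 1.24, adjusted p = 0.0441, edgeR). KO replicate 3 was again the highest, as for Cd163. Without KO replicate 3 the log2 fold change was 2.37 for Cbr2 (adjusted p = 0.0747, edgeR) and 2.21 for Cd163 (adjusted p = 0.0874).

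F13a1, the A chain of the clotting transglutaminase factor XIII (minus strand, chr13:36867178-37050244, 15 exons), was at 15.2, 8.72 and 108 CPM in KO replicates 1, 2 and 3. In WT replicates 1, 2 and 3 it was at 3.33, 7.21 and 7.11 CPM. KO replicate 2 was 1.21-fold above the highest WT library, the smallest such gap among the 8, and the log2 fold change of 2.89 (SE 0.93) did not pass (adjusted p = 0.0836, edgeR). Without KO replicate 3 it was 1.00 (adjusted p = 0.246). Genes of platelets and megakaryocytes, 1 of the known sources of F13a1 outside resident macrophages, summed to 21.9 to 37.3 CPM in KO and 15.1 to 28.6 CPM in WT over 10 genes. Of these 4 were tested and 0 were called by edgeR or limma-voom, while 1 was higher at an unadjusted p under 0.05 and 1 was called higher by DESeq2. Among all 18621 tested genes edgeR called 2083 higher and DESeq2 called 3266 higher. Ppbp, a platelet chemokine, had 12, 8 and 17 counts in KO replicates 1, 2 and 3, against 0, 2 and 0 in WT replicates 1, 2 and 3, and Gp9 and Gp6 had 0 counts in KO and at most 3 in a WT library.

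Timd4, a receptor for phosphatidylserine on dying cells (plus strand, chr11:46810800-46844332, 9 exons), was near the limit of the data, with 8, 23 and 7 counts in KO replicates 1, 2 and 3, against 8, 2 and 3 counts in WT replicates 1, 2 and 3. It was below the filter and not tested. Timd4 averaged 0.425 ± 0.203 CPM over the KO libraries and 0.122 ± 0.0855 CPM over the WT libraries (SD, n = 3 each), and a count of 0 allows up to 3 counts, which stood for 0.0820 to 0.150 CPM. WT replicates 2 and 3 lay at or below that limit, so no fold change is given. KO replicate 2, the lowest KO library for Csf1r, was the highest for Timd4.

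KO replicates 1 and 3 therefore differed in the balance between members of the set. The level of Lyve1 per kb of merged exon was 19.7, 6.91 and 0.0835 times that of Cd163 in KO replicates 1, 2 and 3, against 2.59, 1.04 and 3.37 times in WT replicates 1, 2 and 3. The level of Mrc1 per kb was 0.545, 0.643 and 2.74 times that of Stab1 in the KO libraries in that order, against 0.786, 0.682 and 0.565 times in the WT libraries. KO replicate 3 stood outside the range of the other 5 libraries in both ratios.

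As shares of the summed level per kb of the 8 genes, Stab1 made up 45.6%, 42.1% and 15.4% in KO replicates 1, 2 and 3, against 39.1%, 43.6% and 43.4% in WT replicates 1, 2 and 3. Cbr2 made up 2.66%, 4.11% and 15.3% in the KO libraries, against 2.003%, 2.996% and 4.14% in the WT libraries. Cd163 made up 5.12% in KO replicate 3 and 0.285% and 0.461% in KO replicates 1 and 2, against 0.273% to 0.575% in WT. KO replicate 2 lay within the WT range for the shares of Stab1, Cbr2 and Cd163, while Lyve1 made up 5.61%, 3.19% and 0.427% in KO replicates 1, 2 and 3, against 1.49%, 0.284% and 1.17% in WT replicates 1, 2 and 3.

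**Figure D2:**
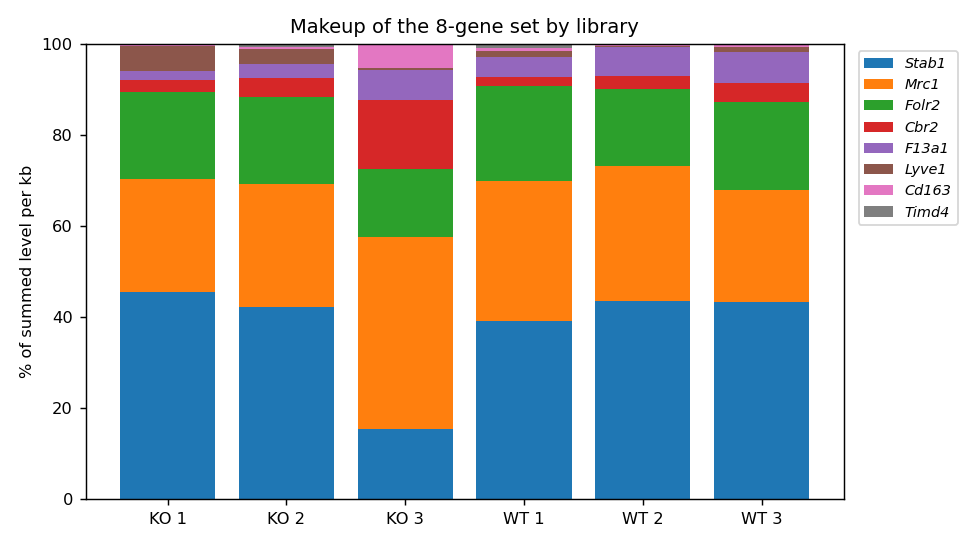
Share of each member (percent) in the summed level per kb of the 8 genes, 1 bar per library, KO left of WT. Stab1, Mrc1 and Folr2 fill most of each bar, and in KO replicate 3 the Stab1 share is 15.4% while Mrc1 (42.2%), Cbr2 (15.3%) and Cd163 (5.12%) are at their largest shares.

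Ordered by mean level per kb in KO, Mrc1 (47.4 CPM per kb), Stab1 (36.3), Folr2 (22.1), Cbr2 (13.8), F13a1 (6.51), Cd163 (4.27), Lyve1 (3.02) and Timd4 (0.196) followed each other. Of these neighbours only Lyve1 and Timd4 had ranges that did not overlap over the KO libraries. Within each KO library, Stab1 still stood above Folr2, Cbr2 above F13a1 and F13a1 above Cd163. In WT the order was Stab1 (6.24 CPM per kb), Mrc1 (4.14), Folr2 (2.77), F13a1 (0.873), Cbr2 (0.464), Lyve1 (0.134), Timd4 (0.0560) and Cd163 (0.0555). There the range of Mrc1 lay clear of that of Folr2, Folr2 of F13a1 and Cbr2 of Lyve1, and the ranges of the other neighbours overlapped. Within each WT library, Stab1 still stood above Mrc1, F13a1 above Cbr2 and Lyve1 above Timd4, the last on few counts. Stab1, Mrc1 and Folr2 held ranks 1, 2 and 3 in that order in 5 of the 6 libraries, and in KO replicate 3 the first 4 ranks were those of Mrc1, Stab1, Cbr2 and Folr2.

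Relative to Csf1r the groups overlapped in each member. With levels per kb as a percentage of that of Csf1r, 0 of the 7 tested members had every KO library above every WT library, against 1.93% of all tested genes per Csf1r read. Every KO library lay below every WT library for 0 of the 7, against 75.0% of all tested genes. Timd4 overlapped as well. Stab1 was at 39.5%, 40.9% and 37.9% of Csf1r in KO replicates 1, 2 and 3, against 23.3%, 42.3% and 41.3% in WT replicates 1, 2 and 3. The KO values lay between those of WT replicate 1 and the other WT libraries, and the difference in mean log2 ratio was 0.20 (exact two-sided permutation p = 1, n = 3 each; the smallest p that 3 against 3 allows is 0.1).

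Folr2 was at 16.5%, 18.5% and 36.5% of Csf1r in KO replicates 1, 2 and 3, against 12.4%, 16.4% and 18.6% in WT replicates 1, 2 and 3 (log2 difference 0.52, exact permutation p = 0.3). Mrc1 was at 21.6%, 26.3% and 104% of Csf1r in the KO libraries, against 18.3%, 28.9% and 23.3% in the WT libraries (0.75, exact permutation p = 0.5). For both genes KO replicates 1 and 2 fell inside the WT range and only KO replicate 3 exceeded it.

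Lyve1 was at 4.86%, 3.09% and 1.05% of Csf1r in KO replicates 1, 2 and 3, against 0.887%, 0.276% and 1.11% in WT replicates 1, 2 and 3 (log2 difference 1.95, exact permutation p = 0.2). Here KO replicates 1 and 2 were above every WT library and KO replicate 3 was not. Cd163 was at 0.247%, 0.448% and 12.6% in the KO libraries, against 0.342%, 0.265% and 0.331% in the WT libraries (1.84, exact permutation p = 0.5). In KO replicate 1, the library with the most Csf1r, Cd163 per Csf1r was lower than in each WT library.

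Cbr2 was at 2.31%, 3.99% and 37.6% of Csf1r in KO replicates 1, 2 and 3, against 1.19%, 2.91% and 3.95% in WT replicates 1, 2 and 3 (log2 difference 1.55, exact permutation p = 0.4). F13a1 was at 1.62%, 3.08% and 16.4% in the KO libraries, against 2.60%, 6.05% and 6.41% in the WT libraries (-0.099, exact permutation p = 1). Timd4 was at 0.0902%, 0.719% and 0.165% in the KO libraries, against 0.529%, 0.148% and 0.249% in the WT libraries, values that rest on 2 to 23 counts and from which no difference is read. The groups overlapped in all 3 genes, and F13a1 per Csf1r was lower in KO replicate 1 than in every WT library.

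**Figure D3:**
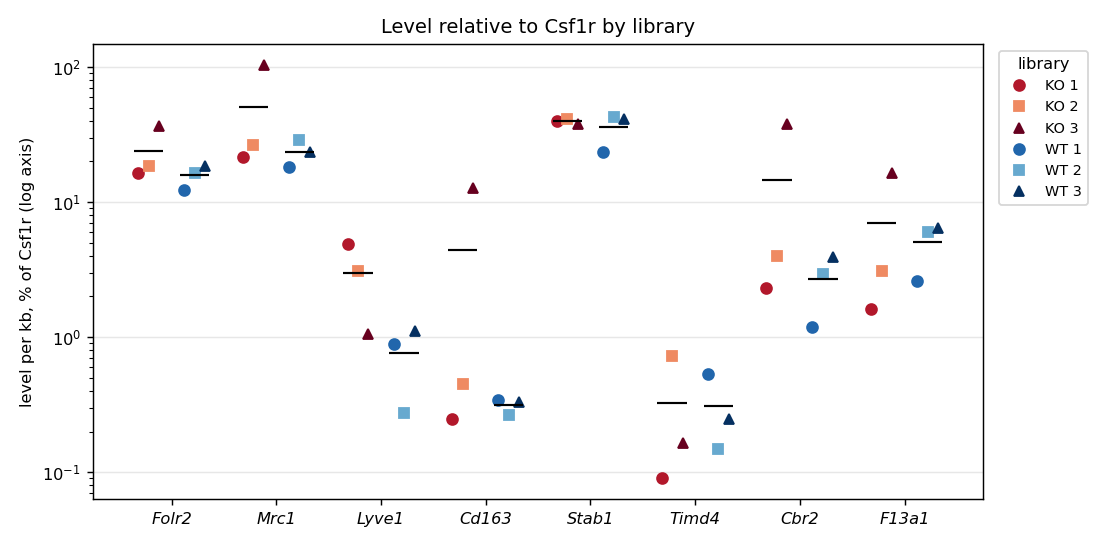
Level per kb of each member as a percentage of that of Csf1r (log axis) in each library, KO left of WT, with black lines at group means. The groups overlap in each of the 8 genes, and the means in KO rest on KO replicate 3 for Mrc1, Cd163, Cbr2 and F13a1.

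A fit of every gene against WT with the Csf1r count of each library in place of the library size differed in part from these ratios. Of the 7 members, Cd163 (log2 fold change 3.82, SE 1.28, adjusted p = 0.0270, edgeR) and Lyve1 (1.98, SE 0.78, adjusted p = 0.0453) were called higher in KO, and 0 were called lower. On this scale 0.644% of 18620 genes were called higher and 60.5% lower, and the median over all tested genes was -2.07, beside 1.11 over the 7 members. Cbr2 did not pass (2.45, SE 1.00, adjusted p = 0.0508), nor did Mrc1 (1.11, SE 0.71, adjusted p = 0.180), Folr2 (0.60, SE 0.56, adjusted p = 0.355), F13a1 (0.49, SE 0.80, adjusted p = 0.604) or Stab1 (0.15, SE 0.56, adjusted p = 0.829). The fold of Cd163 rests on 1 library: without KO replicate 3 its log2 fold change was 0.14 (adjusted p = 0.912), while that of Lyve1 was 2.39 (adjusted p = 0.0613). On the same scale and without the same library, Cbr2 was at 0.23, Mrc1 at 0.026, Folr2 at 0.15 and F13a1 at -1.09. Both calls were also lost without KO replicate 1 (0.0693 for Cd163 and 0.183 for Lyve1) or any single WT library (0.0591 to 0.0659 and 0.0818 to 0.180), and with the summed general macrophage genes in place of Csf1r (0.0621 and 0.0710). In each of those fits 0 genes of the whole table were called, so the losses do not single out Cd163 or Lyve1. Without KO replicate 3, 1 gene of the table was called higher and 2 lower. Without KO replicate 2, 4 members were called higher per Csf1r read.

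**Figure D4:**
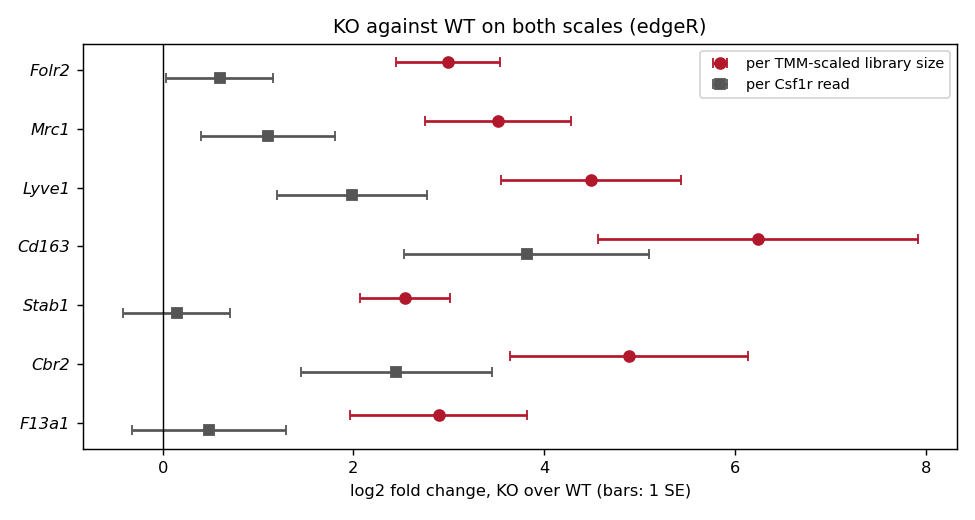
Log2 fold change of KO over WT with 1 SE for the 7 tested members, per TMM-scaled library size (red circles) and per Csf1r read (grey squares). Each circle lies above 2, and the squares of Stab1, F13a1 and Folr2 lie between 0 and 1.

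Which members were called per library size also depended on single libraries. Without KO replicate 1 or any 1 WT library 0 of the 7 members were called (edgeR; at an unadjusted p under 0.05, 7 without KO replicate 1, 6 without WT replicate 1 and 7 without WT replicate 2 or 3), and 0 genes of the whole table were called either. The median log2 fold change of the 7 in those fits was 3.23 without KO replicate 1 and 3.38, 3.66 and 3.43 without WT replicates 1, 2 and 3, beside 3.51 with all libraries, so the calls were lost while the median stayed near its value. Single members moved more: without KO replicate 1 Lyve1 was at 3.05 and Stab1 at 2.06. Without KO replicate 2 all 7 were called. Without KO replicate 3 the 4 called were Folr2, Mrc1, Lyve1 and Stab1 and the median was 2.37, and with limma-voom the 2 called were Mrc1 and Stab1.

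Many other genes of resident and perivascular macrophages moved with the members, though not all. On a list of 26 such genes 24 were tested, 12 rose and 0 fell, beside 11.2% and 0.226% of all tested genes. The median log2 fold change was 3.12. The 3 with the smallest p were Slc40a1, the iron exporter ferroportin, Gas6, a bridging ligand for dying cells, and Colec12, a scavenger receptor. Slc40a1 was at 43.1, 5.90 and 46.9 CPM in KO replicates 1, 2 and 3, against 0.301, 0.399 and 0.833 CPM in WT replicates 1, 2 and 3. Gas6 was at 441, 125 and 323 CPM in the KO libraries, against 20.4, 28.2 and 35.7 CPM in the WT libraries. Colec12 was at 144, 53.98 and 65.6 CPM in the KO libraries, against 16.8, 14.96 and 17.1 CPM in the WT libraries. With limma-voom 4 genes of this list were called and with DESeq2 21, beside 988 and 3266 of all 18621 tested genes called higher. Every KO library was above every WT library for 20 of the 24, against 24.6% of all tested genes. Siglec1 (log2 fold change 1.77, adjusted p = 0.174, edgeR) and Cd209g (0.43, adjusted p = 0.833) were among those that overlapped. In KO replicate 3 Siglec1 was at 25.4 CPM, below WT replicates 2 and 3 at 35.4 and 33.6 CPM. Vsig4, a complement receptor of resident macrophages in several organs, had 0 counts in every library.

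Per Csf1r read 4 of these 24 genes were called higher and 0 lower, and they are named here after their values were seen: Slc40a1 (log2 fold change 3.40), Cd5l, a secreted scavenger protein of resident macrophages (3.41), Hpgd, which degrades prostaglandins (2.27), and Slco2b1, an organic anion carrier (2.12), at adjusted p from 0.0235 to 0.0352 (edgeR). Per Csf1r read, every KO library lay above every WT library for 5 of the 24, these 4 among them, against 1.93% of all tested genes. Other lists held such genes too: 3 of 19 general macrophage genes, 4 of 14 macrophage transcription factors and 6 of 10 fibroblast genes. It held for 0 of 12 vascular endothelial genes and 0 of 7 tested microglia genes. On this scale edgeR called 0.644% of all tested genes higher and 60.5% lower. The 4 were picked by their calls in these same libraries, so their separation is no further support. Slc40a1 per kb was at 3.45%, 1.56% and 5.35% of Csf1r in KO replicates 1, 2 and 3, against 0.176%, 0.251% and 0.562% in WT replicates 1, 2 and 3. Cd5l was at 2.61%, 1.17% and 8.52%, against 0.141%, 0.316% and 0.710%. Without KO replicate 3 the log2 fold change was 2.94 for Slc40a1 (adjusted p = 0.0613, edgeR), 2.30 for Cd5l (0.0620), 1.44 for Hpgd (0.138) and 0.82 for Slco2b1 (0.374). These calls too were lost without KO replicate 1 (0.0693 for each), where the log2 fold changes were 3.40, 3.65, 2.43 and 2.49 in the same order, and without any 1 WT library (0.0559 to 0.105 over the 4 genes), or with the general macrophage genes as denominator (0.0621 to 0.0700). As above, 0 genes of the whole table were called in those fits, so the losses do not single out these 4 genes.

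Transcription factors of macrophages rose beside the members, 9 of 14 tested with 0 lower (median log2 fold change 2.45), against 11.2% and 0.226% of all tested genes. Maf, which maintains the resident macrophage state, was at 270, 75.4 and 251 CPM in KO replicates 1, 2 and 3, against 16.04, 27.4 and 25.3 CPM in WT replicates 1, 2 and 3. Spic, the factor of iron-recycling macrophages of the spleen, was at 13.7, 2.28 and 10.3 CPM in KO replicates 1, 2 and 3, against 0.410, 0.342 and 0.417 CPM in WT replicates 1, 2 and 3. Spic was the 1 factor of 14 called higher per Csf1r read (log2 fold change 1.97, adjusted p = 0.0248, edgeR), with groups that did not overlap. On that scale 2 factors, Id3 and Klf4, were called lower, while 0.644% of all tested genes were called higher and 60.5% lower. Without KO replicate 1, KO replicate 3 or any 1 WT library the Spic call was lost (adjusted p 0.0671 to 0.109), as it was with no low-count filter (0.0509), while its log2 fold change stayed at 1.80 to 2.08 without 1 of these libraries. Without KO replicate 1 or any 1 WT library 0 genes of the whole table were called per Csf1r read. Without KO replicate 3, 1 was called higher and 2 lower.

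Among general macrophage genes 16 of 20 rose and 0 fell (median log2 fold change 2.35), and per Csf1r read 0 of the other 19 were called in either direction (edgeR; 0 also at an unadjusted p under 0.05, with a median of -0.058). Among all tested genes 11.2% were called higher and 0.226% lower, and per Csf1r read 0.644% and 60.5%. Their summed level was 19772, 5933 and 25088 CPM in KO replicates 1, 2 and 3, against 3838, 2612 and 2457 CPM in WT replicates 1, 2 and 3. Csf1r made up 4.05%, 4.08% and 2.24% of it in the KO libraries, against 2.86%, 3.91% and 3.87% in the WT libraries. Csf1r was thus the smallest share of the general genes in KO replicate 3, the library in which Mrc1, Cd163, Cbr2 and F13a1 stood out per Csf1r. The part of this smaller share in those ratios was not tested.

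The counts for the lists below stand beside 11.2% of all 18621 tested genes called higher and 0.226% lower by edgeR. DESeq2 called 3266 of them higher and 1244 lower, and 5919 had an unadjusted p under 0.05 (edgeR, either direction). Of 12 monocyte and monocyte-derived genes 6 rose, among them Ccr2 and Ace, and 0 fell (edgeR, median 1.70), while DESeq2 called 6 higher and 1 lower. Of 12 lipid-associated genes 4 rose (median 2.52), Lpl, Cd36, Trem2 and Spp1. Of 15 other endocytic receptors 13 were tested and 11 rose, including Colec12, Lrp1 and Msr1, while Clec4f, the Kupffer cell lectin, had 0 counts throughout. Of 12 receptors and ligands for dying cells other than Timd4 10 were tested and 5 rose, Mertk, Itgb3, Cd300lf, Havcr2 and Lrp1. Colec12, Cd36, Lrp1 and Mertk each stand on 2 of these lists. Of 9 folate carriers and enzymes other than Folr2 8 were tested and 0 were called by edgeR or limma-voom (median log2 fold change -1.17). At an unadjusted p under 0.05 1 was higher and 3 lower, and DESeq2 called 2 lower. Of 12 macrophage growth factor and cytokine genes 11 were tested and 4 rose, Il4ra, Il10ra, Il10rb and Stat6, the last a signal carrier of the interleukin 4 receptor. Of 8 microglia genes 7 were tested and 3 rose, among them Fcrls and Siglech.

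Some lists for cell types that share members or lie beside these macrophages also moved. Of all tested genes 11.2% were called higher. Vascular endothelial genes rose in 11 of 12 cases (summed level 461 to 1501 CPM in KO and 107 to 144 CPM in WT), and fibroblast genes in 9 of 10 (9401 to 27890 CPM in KO and 1649 to 2643 CPM in WT). Adipocyte genes summed to 43.4, 33.4 and 168 CPM in KO replicates 1, 2 and 3, against 25.6, 15.5 and 14.0 CPM in WT replicates 1, 2 and 3. Of 9 tested 1 rose, Lipe, which is near the share of all tested genes, and limma-voom called 0. The adipocyte sum was highest in KO replicate 3, as Cd163, Cbr2 and F13a1 were, and its part in their levels was not tested. It was not alone in this. The sums of vascular endothelial, B cell, lipid-associated and general macrophage genes were also highest there. Those of fibroblast and T cell genes were highest in KO replicate 1. Of the remaining lists, 4 of 10 dendritic cell genes (Flt3, Cd209a, Ccr7 and Sirpa), 9 of 10 T cell genes, 4 of 8 tested B cell genes (Cd79b, Blk, Cd22 and Ighm) and 2 of 4 tested neutrophil genes (Csf3r and Mmp9) rose with 0 lower, and 3 of 12 genes of the tumour line fell with 0 higher (Cntn1, Slc1a3 and Cspg5). DESeq2 called 5 B cell genes higher and 1 lower, beside 3266 higher and 1244 lower among all 18621 tested genes.

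**Figure D5:**
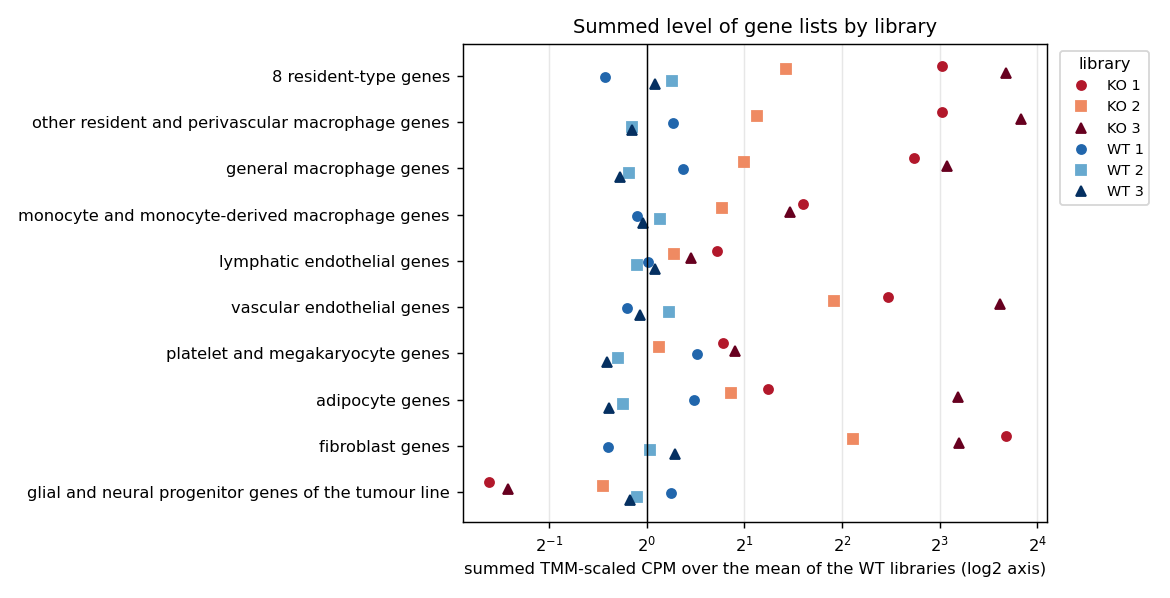
Summed TMM-scaled CPM of the 8 members and of 9 other gene lists in each library, divided by the mean of the WT libraries (log2 axis), with KO libraries in red and WT libraries in blue. For both resident macrophage lists KO replicates 1 and 3 lie highest and KO replicate 2 between them and WT, the adipocyte list stands apart in KO replicate 3, and the tumour line list is lowest in KO replicates 1 and 3.

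Likeness of pattern was read as the Euclidean distance between log2 CPM values over the 6 libraries, each gene centred on its own mean, among 11784 genes. Closest to Folr2 were Mitf, a transcription factor (distance 0.25), Ryr1 (0.28) and the chemokine receptor Cxcr4 (0.29). Closest to Mrc1 were Cd200r1, an inhibitory receptor of myeloid cells (0.48), Fam20c (0.54) and Cd300lb (0.56), and closest to Stab1 were Il18r1 (0.16), Pde3b (0.27) and Sorl1 (0.28). The median distance over all these genes was 3.84 from Folr2, 4.41 from Mrc1 and 3.40 from Stab1. This distance grows with a gene's own spread over the libraries. Nearest to Cd163, at a median of 6.61 over all these genes, were Retnla (1.52) and Chil3 (1.52), both secreted by alternatively activated macrophages, and Fabp4, a fatty acid carrier of adipocytes and macrophages (1.77). Retnla was at 7.11, 4.39 and 270 CPM in KO replicates 1, 2 and 3, against 4.89, 1.97 and 1.19 CPM in WT replicates 1, 2 and 3.

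Lyve1 was nearest to Pamr1 (0.92), Itgbl1 (1.39) and Islr (1.53), Cbr2 to Mgll (1.24), Cd36 (1.29) and Mgp (1.49), and F13a1 to Cd34 (1.00), Gda (1.11) and Pi16 (1.13). The median distance over all these genes was 5.46 from Lyve1, 5.71 from Cbr2 and 3.95 from F13a1. Within the set Folr2 and Mrc1 (0.99) and Folr2 and Stab1 (1.06) were the closest pairs and Lyve1 and Cd163 the farthest apart (5.94).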

How the data were processed

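Bulk RNA-seq was measured in 3 KO and 3 WT tumour libraries. The authors deposited raw read counts per gene, with merged exon lengths, in the layout of featureCounts per the file headers. Per the submitters' processing notes the genome was mm10 and DESeq2 was used, with no version. For the aligner, annotation release, strand setting and multiple alignments: not given in the sources used here. Positions and exon numbers are from GENCODE M21 (same build), promoters from RefSeq (GRCm38.p6).

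KO was tested against WT in edgeR 4.0.16 (R 4.3.3) by its quasi-likelihood fit (TMM, filterByExpr defaults, group as the only term), which kept 18621 genes, with Benjamini-Hochberg adjustment over all of them and a threshold of 0.05. A second fit used the log Csf1r count as offset. SE is the absolute log2 fold change over the square root of F. Log2 CPM used a prior count of 2. Ratios to Csf1r per kb were compared with an exact permutation test (scipy 1.17.1). Alternatives were RLE or no composition scaling, other filters, DESeq2 1.42.0, limma-voom (limma 3.58.1), another denominator and leaving out each library. The fits were tested on simulated counts. Library totals were 24369359 to 40574093 counts; floors cover counting error only. No pair looked like 1 library deposited more than once (lowest chi-square over its degrees of freedom 10.2), which does not show separate mice. Replicates are numbered by accession, as names.

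The members, the 20 gene lists and the tests were chosen with earlier results of these data known. Named genes are the members, Csf1r, Siglece, the 3 tested genes with the smallest p of a list, list genes at 0 in a group, and, for each member, the 3 genes nearest in pattern (mean log2 CPM at least 2, predicted gene models left out). Other list genes were named after their values were seen. Some genes that this rule names are not reported here.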

Additional observations from a re-analysis of the deposited data

How the results depend on the processing

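Over all genes 2083 were called higher and 42 lower; the counts were 3266 and 1244 with DESeq2, 988 higher with limma-voom, 24 lower without composition scaling and 476 lower with no low-count filter. Leaving out 1 library gave 0 to 4449 higher and 0 to 3629 lower genes, and 0 to 7 members higher; limma-voom called 2 members. Cd163 had no adjusted p with DESeq2, which called the other 6 tested members, and with no low-count filter 7 of 8 members were called (Timd4, adjusted p = 0.365, was not). Cbr2 missed the threshold without composition scaling (0.0526). Per Csf1r read, 120 genes were called higher and 11257 lower; with the summed general macrophage genes as denominator 0 genes were called higher or lower and 0 members (edgeR; 11027 genes and 2 members at an unadjusted p under 0.05), and with no low-count filter 216 were higher. Leaving out 1 library gave 0 to 349 genes higher, 0 to 14883 lower and 0 to 4 members higher. Leaving out 1 library, the log2 fold change per Csf1r read ran from -0.084 (without WT replicate 1) to 0.29 for Stab1 and from -1.09 (without KO replicate 3) to 0.96 for F13a1, and the log2 difference of the ratio to Csf1r from -0.085 to 0.35 for Stab1, -1.14 to 0.35 for Timd4, whose few counts allow no reading of it, and -1.06 to 0.61 for F13a1. Without composition scaling the median log2 fold change of all genes was -0.18, beside -0.045. The cause of these changes was not tested, and a fit without 1 library has fewer samples. No paired analysis was possible because the labels give no replicate numbers that the groups share.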
